A study of Danio rerio with 12 samples.

Results

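Fibronectin is a large secreted glycoprotein that cells assemble into fibrils of the extracellular matrix. The gene table used here gives the symbol FN1 to 2 measured genes, ENSDARG00000006526 and ENSDARG00000019815, out of 32105 genes in all, and both passed the filter on low counts that 20872 genes passed. Zebrafish carry a pair of fibronectin genes, fn1a and fn1b, but the tables do not pair those names with the identifiers. The genes are therefore called gene A (ENSDARG00000006526) and gene B (ENSDARG00000019815) below. They were chosen by measured values of these same libraries, since fibronectin was known to be higher where collagen genes were lower. Their levels and their differences between groups are therefore given as a description, with no test.

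RNA was sequenced from whole wild-type zebrafish (Danio rerio) aged 2 days, in 12 libraries of 3 groups with 4 libraries each. The control group had no perturbation. The other groups had synthetic miR-101a at 2 ng and synthetic miR-29a at 2 ng. No mock-treated group is named in the labels, and no route is given for the microRNA. They also do not state how many animals went into a library or whether replicates are separate clutches, so the spread behind the p-values below is that between these samples and may be technical.

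A fibronectin dimer is secreted in a soluble form and is pulled into fibrils by integrins on the cell surface, above all the α5β1 integrin, which link it through adaptor proteins to actin. The fibrils hold collagens, fibrillin and growth factor complexes in place, and proteases cut them. In zebrafish embryos fibronectin is known for its part in the migration of heart precursors to the midline and in the formation of somite boundaries. In mammalian cells TGF-beta is a well-known inducer of fibronectin. A microRNA lowers messenger RNAs that carry matching sites, and collagen genes are the best known targets of miR-29.

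Total counts ran from 19804199 to 30383374 per library. Markers of muscle, neurons, lens, red blood cells and epidermis were all detected, and no marker gene of any list had 0 counts in all 12 libraries. One library stood apart from its group, miR-29a replicate 3. Its TMM scaling factor, which corrects for the composition of a library, was 0.729, beside 0.963 to 1.11 in the others. The levels of the fibronectin genes and many counts of called genes are given with and without this library. Sums of markers and log2 differences of single genes use all libraries unless stated. With all libraries 29% of tested genes differed between miR-29a and control, and without miR-29a replicate 3 the share was 52.6%.

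Both fibronectin genes were at a similar level in control embryos, and gene A was far higher in both microRNA groups, most in miR-29a. The counts of gene A were 3993, 4115, 3732 and 3821 for control, 12182, 7839, 10834 and 11074 for miR-101a, and 41484, 41492, 12529 and 63032 for miR-29a. After scaling this was 167, 147, 131 and 147 CPM (counts scaled to a common library size) in control, a mean of 148 ± 14.8 CPM (SD, n = 4). The miR-101a libraries held 383, 389, 396 and 420 CPM, a mean of 397 ± 16.6 CPM (SD, n = 4). The groups did not overlap, and the lowest miR-101a library was 2.29 times the highest control library.

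In the miR-29a libraries gene A stood at 1748, 1613, 648 and 2109 CPM, a mean of 1530 ± 624 CPM (SD, n = 4). Replicate 3 was the low one, and without it the mean was 1824 ± 256 CPM (SD, n = 3). Even replicate 3 was 3.88 times the highest control library and 1.54 times the highest miR-101a library, so that the 3 groups were fully separated in the order control, miR-101a, miR-29a. The coefficient of variation of gene A was 9.98% in control, 4.18% in miR-101a and 40.8% in miR-29a.

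Gene B moved much less. Its counts were 3875, 4476, 4526 and 3830 in control, 6332, 3885, 4980 and 5666 in miR-101a, and 7780, 7564, 3472 and 9506 in miR-29a. The scaled control libraries held 162, 160, 159 and 147 CPM, a mean of 157 ± 6.55 CPM (SD, n = 4). The miR-101a libraries held 199, 193, 182 and 215 CPM, a mean of 197 ± 13.9 CPM (SD, n = 4). All 4 miR-101a libraries were above all control libraries, by a factor of 1.12 between the nearest ones.

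The miR-29a libraries of gene B held 328, 294, 180 and 318 CPM, a mean of 280 ± 68.4 CPM (SD, n = 4) and of 313 ± 17.4 CPM without replicate 3 (SD, n = 3). All were above the control libraries, by a factor of 1.11 between the nearest ones. Replicate 3, at 180 CPM, lay below the lowest miR-101a library, so that the 2 microRNA groups overlapped for gene B with it and were separate without it.

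**Figure D1:**
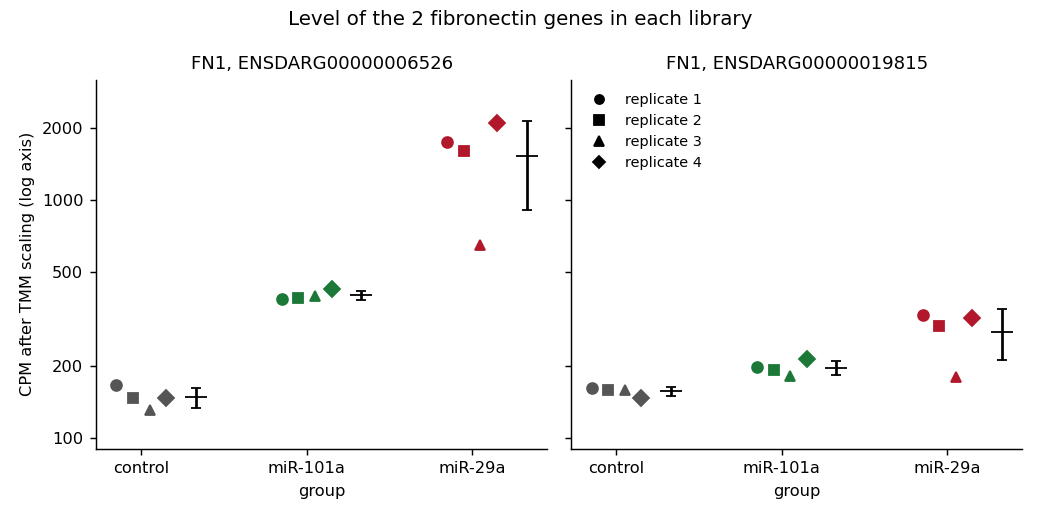
CPM after TMM scaling, on a log axis, of gene A (left) and gene B (right) in every library of the 3 groups. Marker shapes give the replicate and the bar beside each group its mean and SD (n = 4). Gene A climbs from 131 to 167 CPM in control to 1613 to 2109 CPM in 3 miR-29a libraries, with replicate 3 at 648 CPM, while gene B stays between 147 and 328 CPM.

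As fitted differences on the log2 scale with their standard errors, gene A was higher by 3.37 ± 0.29 in miR-29a than in control, which is 10.3-fold. Against control it was higher by 1.42 ± 0.27 in miR-101a, which is 2.68-fold. Between the microRNA groups it was higher in miR-29a by 1.95 ± 0.28. Both comparisons with control use the same control libraries. The standard errors rest on 1 estimate of the spread shared by all 12 libraries, miR-29a replicate 3 among them. Fitted on only the 8 libraries compared, gene A differed from control by 3.38 ± 0.36 in miR-29a and by 1.43 ± 0.06 in miR-101a.

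For gene B the fitted log2 differences were 0.83 ± 0.16 for miR-29a against control, 0.33 ± 0.16 for miR-101a against control and 0.51 ± 0.16 for miR-29a against miR-101a. The differences from control are 1.78-fold and 1.26-fold. Fitted on only the 8 libraries compared, gene B differed from control by 0.84 ± 0.20 in miR-29a and by 0.33 ± 0.05 in miR-101a. Groups that did not overlap, with the microRNA group higher, were common: 18.4% of all tested genes showed this for miR-29a against control and 23.3% for miR-101a against control. For miR-29a above miR-101a, which gene A showed and gene B did not, the share was 11.6%. The separation of the groups by itself therefore did not set these genes apart.

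By size of the difference gene A was near the top. Since the fibronectin genes were chosen for their rise in these libraries, these ranks are a description only. Of 20872 tested genes it had the 60th highest log2 difference in miR-29a against control, the 395th in miR-101a against control and the 83rd in miR-29a against miR-101a. None of the genes above it against control reached 100 CPM in the control group. Among the 1697 genes with at least 100 CPM in control, gene A ranked 1 in both comparisons with control and 5 in the direct one. That limit lies below the mean of gene A in control, 148 CPM, and the ranks depend on it. Gene B ranked 1944 and 4878 against control over all tested genes, and 33 and 89 among the 1697 genes.

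To compare genes with each other, levels are given as RPKM, which divides by gene length and library size, from the counts and the gene length that the deposited tables imply. Those lengths were 9160 bases for gene A and 9001 bases for gene B, longer than about 98% of tested genes (percentiles 98.1 and 98.0). Gene A had 16.1 ± 1.61 RPKM in control, 43.3 ± 1.81 in miR-101a and 167 ± 68.1 in miR-29a (SD, n = 4 each). Ranked by these means it was gene number 4051 of 20439 in control, 1393 of 20442 in miR-101a and 384 of 20442 in miR-29a. Gene B had 17.4 ± 0.728, 21.9 ± 1.54 and 31.1 ± 7.59 RPKM in the same order of groups, and ranked 3734, 2890 and 2189.

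As a share of all counts of a library, gene A took 0.0126% to 0.0163% in control, 0.0396% to 0.0447% in miR-101a and 0.0472% to 0.229% in miR-29a. The lowest of these miR-29a shares was that of replicate 3, and it was still above every miR-101a share. These values come from bulk RNA, in which fewer cells of a type and less RNA per cell cannot be told apart. The same holds for more cells and more RNA per cell.

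The balance between the fibronectin genes turned from near parity to a large excess of gene A. In control, gene A made up 50.7%, 47.9%, 45.2% and 49.9% of the counts of both genes, a mean of 48.4% ± 2.48 (SD, n = 4). In miR-101a it made up 65.8%, 66.9%, 68.5% and 66.2%, a mean of 66.8% ± 1.20 (SD, n = 4). In miR-29a it made up 84.2%, 84.6%, 78.3% and 86.9%, a mean of 83.5% ± 3.66 (SD, n = 4), and the 3 groups did not overlap.

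Replicate 3 was the lowest miR-29a library in this share too, and its exact Clopper-Pearson 95% interval, 77.7% to 78.9%, was far from the highest miR-101a library at 68.5%. Such intervals cover counting error only. Per length, gene A stood at 0.923 times gene B in control, 1.98 times in miR-101a and 5.05 times in miR-29a. The share compares 2 genes of nearly the same length within a library, so library scaling cancels out of it. Whether reads of one fibronectin gene were counted for the other was not tested.

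**Figure D2:**
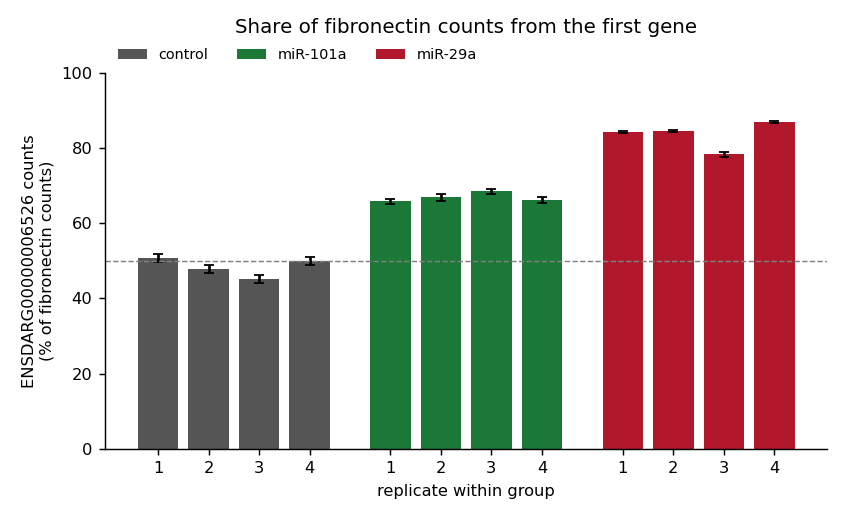
Counts of gene A as a percentage of the counts of both fibronectin genes in each library. Error bars are exact 95% binomial intervals and the dashed line marks 50%. Control libraries lie between 45.2% and 50.7%, miR-101a libraries between 65.8% and 68.5% and miR-29a libraries between 78.3% and 86.9%.

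Genes as long as the fibronectin genes were also low in miR-29a replicate 3. In that library gene A was lower by −1.48 on the log2 scale than in the mean of the other 3 miR-29a libraries. The 656 genes whose length was within 20% of that of gene A had a median of −0.76 there, with quartiles of −1.10 and −0.44, and 96 of them (14.6%) were lower than gene A. For gene B the value was −0.80 beside a median of −0.73 for 702 genes of similar length, of which 310 (44.2%) were lower. In the other 11 libraries these medians lay between −0.09 and 0.10. The part of gene length in the fibronectin values of this library was not tested.

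**Figure D3:**
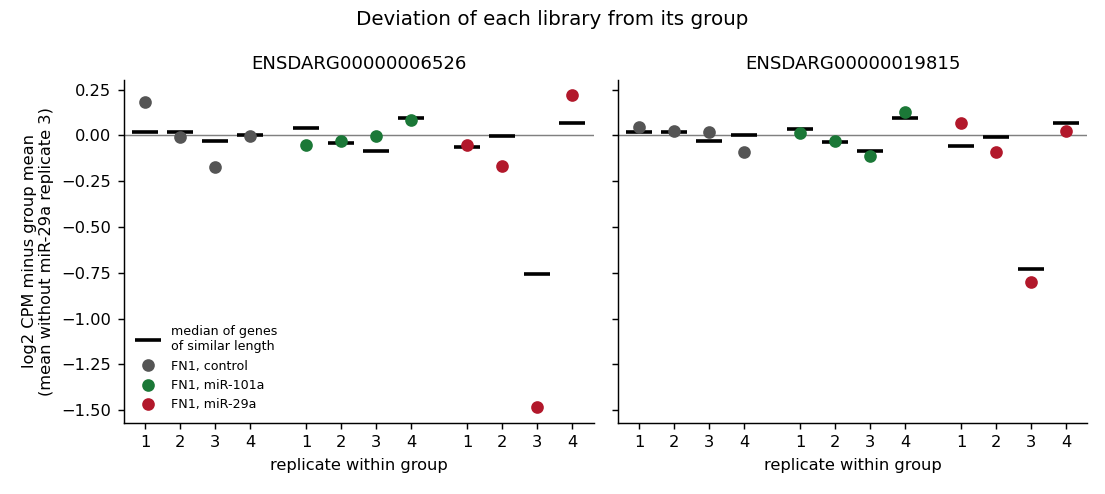
Deviation of each library from its group on the log2 CPM scale, for gene A (left) and gene B (right), with the group mean taken without miR-29a replicate 3. Dots are the fibronectin gene and dashes the median of genes of similar length, 656 on the left and 702 on the right. Only miR-29a replicate 3 lies far below 0, at −1.48 for gene A and −0.80 for gene B.

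Collagens are the main fibril proteins of connective tissue, and type I collagen, built from α1 and α2 chains, is the most abundant of them in skin and bone. Fibronectin was chosen because it was high where collagens were low in these libraries, so the collagen values too are a description, and they support nothing. The log2 differences in miR-29a against control were −1.41 ± 0.14 for col1a1a, −1.25 ± 0.14 for COL1A1 (ENSDARG00000035809) and −1.06 ± 0.14 for COL1A2. In miR-101a they were smaller, −0.45 ± 0.14 for col1a1a, −0.27 ± 0.14 for COL1A1 and −0.19 ± 0.14 for COL1A2.

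Set against these 3 chains, fibronectin went from a minor to a major transcript. The 2 fibronectin genes summed to 33.6 ± 1.92 RPKM in control, 65.2 ± 3.04 in miR-101a and 198 ± 75.3 in miR-29a (SD, n = 4 each). The summed type I collagen ran from 768 to 874 RPKM in control, from 612 to 718 in miR-101a and from 276 to 420 in miR-29a. Fibronectin was thus 4.05% ± 0.269 of type I collagen in control and 9.92% ± 1.17 in miR-101a. In the miR-29a libraries it was 82.4%, 56.5%, 21.6% and 82.8%, and replicate 3, the lowest, was still above all miR-101a libraries.

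**Figure D4:**
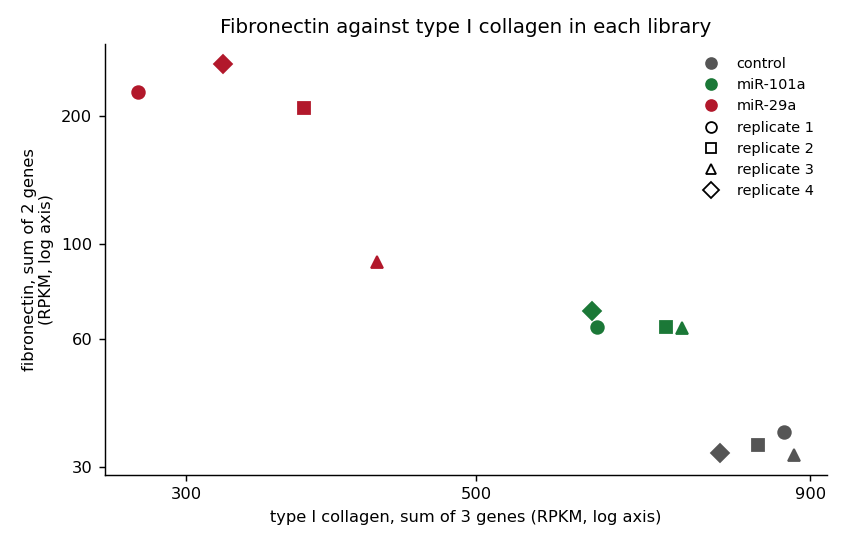
Summed RPKM of the 2 fibronectin genes against summed RPKM of the 3 type I collagen genes, both on log axes, for each of the 12 libraries. Colours are groups and marker shapes replicates. The groups form separate clusters, with control at 32 to 36 RPKM of fibronectin and 768 to 874 RPKM of collagen and miR-29a at 91 to 265 RPKM of fibronectin and 276 to 420 RPKM of collagen.

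The choice of fibronectin rested on the low collagens of the same libraries, so the counts of this paragraph restate that observation across the family. Of 45 collagen genes 44 were tested, and 36 fell and 0 rose in miR-29a against control, with a median log2 difference of −1.11 beside 0.03 for all tested genes. Over all tested genes 11.9% were called lower and 17.1% higher in that comparison. Without miR-29a replicate 3, 38 collagen genes fell and 1 rose, beside 26.8% of all genes called lower and 25.8% higher. In miR-101a 10 fell and 2 rose, with a median of −0.16 beside 0.02, and here 6.97% of all tested genes were called lower and 11.7% higher. Without miR-29a replicate 3, which changes the shared estimate of the spread, 18 fell and 7 rose in miR-101a. In that fit 24.2% of all genes were called lower and 23.7% higher. In the direct comparison 36 collagen genes were lower and 0 higher in miR-29a than in miR-101a, where 9.23% of all genes were called lower and 8.64% higher.

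Basement membrane chains were among the collagens furthest below control in miR-29a, with log2 differences of −2.50 for COL4A4 and −2.21 for col4a3. In miR-101a the same 2 chains differed by −1.46 and −0.97. The collagens called higher in miR-101a were COL8A1, a short-chain collagen, with a log2 difference of 1.41, and col17a1b, a copy of the transmembrane collagen of epithelial anchoring, with 0.76. The level of COL8A1 was low, with means of 0.738 CPM in control and 1.96 CPM in miR-101a. The other copy, col17a1a, had a log2 difference of −0.79 in the same comparison.

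Among 75 matrix genes (the fibronectin genes, the 45 collagens and 28 binding partners), gene A moved from the middle to the top. The low values of the collagens led to the choice of fibronectin, so these ranks are a description only. By mean RPKM gene A ranked 36 in control, 19 in miR-101a and 1 in miR-29a, and gene B ranked 35, 31 and 20. Gene A ranked 34 to 38 in the 4 control libraries, where col1a1a led with 353 to 386 RPKM, and 18 or 19 in the miR-101a libraries. In the miR-29a libraries it ranked 1 in replicates 1, 2 and 4 and 9 in replicate 3, where a POSTN gene led with 204 RPKM. In replicates 1, 2 and 4 gene A led with 176 to 230 RPKM, below the level of col1a1a in control.

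With all 12 libraries few receptors of fibronectin were called, and without miR-29a replicate 3 more were. Of 16 tested receptor genes, the integrin subunits and syndecans that bind fibronectin, 1 rose and 0 fell in miR-29a, and 2 rose and 0 fell in miR-101a. Over all tested genes 17.1% were called higher and 11.9% lower in miR-29a, and 11.7% higher and 6.97% lower in miR-101a. The medians of the receptors' log2 differences were −0.08 and 0.04. ITGA5, the α subunit of the α5β1 integrin, was at 30.7, 29.5, 31.3 and 30.8 CPM in control and at 37.1, 38.0, 35.0 and 37.1 CPM in miR-101a. These groups did not overlap, as was so, with miR-101a higher, for 23.3% of all tested genes. ITGA5 rose by 0.27 ± 0.06 on the log2 scale in miR-101a (adjusted p = 0.012, edgeR's quasi-likelihood test).

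In miR-29a ITGA5 was at 32.8 to 35.3 CPM, with a log2 difference of 0.16 ± 0.06 (adjusted p = 0.082). ITGB6, the β subunit of αvβ6, an epithelial integrin that binds fibronectin and activates latent TGF-beta in mammals, rose in miR-29a by 0.58 ± 0.09 (adjusted p = 3.8e-04). It was at 12.8 to 14.3 CPM in control, 13.0 to 13.5 CPM in miR-101a and 18.7 to 22.1 CPM in miR-29a. The third receptor called was ITGA8, an α subunit that pairs with β1, with 0.30 ± 0.09 in miR-101a (adjusted p = 0.035), and that call was lost without any 1 of 7 control and miR-101a libraries.

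The counts of receptor calls depended on 1 library: without miR-29a replicate 3, 7 receptors rose and 2 fell in miR-29a and 5 rose and 2 fell in miR-101a, while 25.8% and 23.7% of all genes were then called higher and 26.8% and 24.2% lower. Of 9 integrins that mostly bind other ligands, such as laminin or collagen, 3 rose and 0 fell in miR-29a (all genes 17.1% higher, 11.9% lower), and 2 rose and 1 fell in miR-101a (all genes 11.7% and 6.97%). Among them itga6b, a laminin receptor subunit, had a log2 difference of 0.59 in miR-29a, and ITGA11, a collagen receptor subunit, one of 0.64 in miR-101a.

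Inside the cell, integrins bind a plaque of adaptors that couple them to actin. Of 22 adhesion genes 3 rose and 0 fell in miR-29a, and 2 rose and 0 fell in miR-101a, with medians of 0.00 and 0.08. With 17.1% of all genes called higher in miR-29a and 11.7% in miR-101a, the adhesion genes were near the background. Filamin A (flna), an actin crosslinker, went from 325 CPM in control to 489 CPM in miR-29a, a log2 difference of 0.59 ± 0.14 (adjusted p = 0.0064, edgeR's quasi-likelihood test). The adaptor lims1 of the integrin-linked kinase complex rose by 0.38 ± 0.06 in miR-29a, and a paxillin gene (PXN, ENSDARG00000088590) by 0.39 ± 0.07 in miR-101a. The kinase ILK itself had log2 differences of 0.02 and 0.21, with adjusted p of 0.90 and 0.15. Without miR-29a replicate 3, 9 adhesion genes rose and 2 fell in miR-29a (all genes 25.8% higher, 26.8% lower), and 7 rose and 3 fell in miR-101a (all genes 23.7% and 24.2%).

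The secreted partners of fibronectin were divided. Of 28 tested genes 7 rose and 10 fell in miR-29a, and 4 rose and 4 fell in miR-101a, with medians of −0.32 and −0.05. The shares of all genes were 17.1% higher and 11.9% lower in miR-29a, and 11.7% and 6.97% in miR-101a. A tissue transglutaminase gene (TGM2, ENSDARG00000074094), whose enzyme crosslinks fibronectin in mammals, went from 49.8 CPM in control to 68.9 CPM in miR-101a and 89.8 CPM in miR-29a. Its log2 differences were 0.47 ± 0.08 (adjusted p = 0.0015) and 0.85 ± 0.08 (adjusted p = 1.4e-05), by edgeR's quasi-likelihood test. The other TGM2 gene (ENSDARG00000070157) fell by similar amounts in both groups, by 0.94 ± 0.22 in miR-101a and 0.93 ± 0.22 in miR-29a.

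CCN2, connective tissue growth factor, which binds fibronectin, was at 55.0 CPM in control, 122 CPM in miR-101a and 91.3 CPM in miR-29a. It rose on the log2 scale by 1.15 ± 0.16 in miR-101a (adjusted p = 5.4e-04) and by 0.73 ± 0.16 in miR-29a (adjusted p = 0.0050, edgeR's quasi-likelihood test). An IGFBP5 gene (ENSDARG00000025348), which encodes a growth factor carrier that binds matrix, rose by 0.79 ± 0.06 in miR-101a and 0.55 ± 0.06 in miR-29a. Falls were seen among structural partners: periostin (POSTN, ENSDARG00000104267) went from 1329.6 to 720 CPM in miR-29a, a log2 difference of −0.88 ± 0.13 (adjusted p = 3.7e-04). Fibulin 2 (FBLN2) fell by 0.63 ± 0.09 and emilin1b by 0.58 ± 0.08 in miR-29a. A vitronectin gene (VTN, ENSDARG00000053831), which encodes a plasma adhesion protein, fell by 1.13 ± 0.24 in miR-101a. Leaving out miR-29a replicate 3, 10 partners rose and 13 fell in miR-29a (all genes 25.8% higher, 26.8% lower), and 7 rose and 9 fell in miR-101a (all genes 23.7% and 24.2%).

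Of 20 genes of TGF-beta signalling 3 rose and 3 fell in miR-29a, and 3 rose and 1 fell in miR-101a, beside 17.1% of all genes higher and 11.9% lower in miR-29a and 11.7% and 6.97% in miR-101a. The ligand genes were not among the rises: tgfb1a stood at 17.4 to 17.7 CPM in the group means, with log2 differences of −0.03 and −0.01.

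A type II TGF-beta receptor gene (TGFBR2, ENSDARG00000034541) rose on the log2 scale by 0.76 ± 0.11 in miR-101a (adjusted p = 5.3e-04) and by 0.66 ± 0.11 in miR-29a (adjusted p = 7.1e-04, edgeR's quasi-likelihood test). The other TGFBR2 gene (ENSDARG00000059363) rose by 2.21 ± 0.21 in miR-29a, from 2.81 to 13.0 CPM. The signal transducer SMAD3 (ENSDARG00000036096) fell, by 0.99 ± 0.09 in miR-101a and 0.45 ± 0.09 in miR-29a. Without miR-29a replicate 3, 4 genes of this list rose and 8 fell in miR-29a (all genes 25.8% higher, 26.8% lower), and 6 rose and 6 fell in miR-101a (all genes 23.7% and 24.2%).

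The proteases that cut fibronectin and other matrix proteins, listed together with their inhibitors, mostly rose in miR-29a. Of 20 tested genes 13 rose and 2 fell in miR-29a, beside 17.1% of all genes higher and 11.9% lower. The median log2 difference was 0.84, and 0.03 for all genes. In miR-101a 5 rose and 2 fell, with a median of 0.40, beside 11.7% of all genes higher and 6.97% lower. In the direct comparison 10 were higher and 1 was lower in miR-29a than in miR-101a, beside 8.64% and 9.23% of all genes. When miR-29a replicate 3 was left out, 15 rose and 2 fell in miR-29a (all genes 25.8% higher, 26.8% lower), and 11 rose and 3 fell in miR-101a (all genes 23.7% and 24.2%).

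MMP9, a gelatinase, was at 6.36, 8.02, 7.44 and 7.54 CPM in control, at 27.6, 18.3, 32.3 and 18.5 CPM in miR-101a and at 196, 73.9, 246 and 194 CPM in miR-29a. It rose by 4.59 ± 0.35 on the log2 scale in miR-29a (adjusted p = 4.6e-06) and by 1.72 ± 0.32 in miR-101a (adjusted p = 0.0031), by edgeR's quasi-likelihood test. Members of this list that act against proteolysis rose as well. A tissue inhibitor of metalloproteinases (TIMP2, ENSDARG00000075261) went from 10.6 CPM in control to 29.9 CPM in miR-101a and 78.2 CPM in miR-29a.

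The other TIMP2 gene (ENSDARG00000061226) rose by a similar log2 difference in both groups, 1.12 ± 0.08 and 1.09 ± 0.08. The falls in miR-29a were those of MMP11, by 1.41 ± 0.20, and of plasminogen (PLG), by 0.51 ± 0.09. In miR-101a PLG fell by 0.61 ± 0.09 and one MMP14 gene (ENSDARG00000008388), a membrane-bound collagenase, by 0.54 ± 0.10.

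Over the 5 lists of receptors, adhesion, partners, TGF-beta and proteases, 27 of 106 genes rose and 15 fell in miR-29a, beside 17.1% and 11.9% of all tested genes. In miR-101a 16 rose and 7 fell, beside 11.7% and 6.97% of all genes, and in the direct comparison 22 were higher and 17 lower in miR-29a, beside 8.64% and 9.23%. Without miR-29a replicate 3 the counts were 45 and 27 in miR-29a, 36 and 23 in miR-101a and 39 and 27 in the direct comparison. All genes were then called higher and lower in 25.8% and 26.8%, in 23.7% and 24.2%, and in 21.3% and 22.1%.

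**Figure D5:**
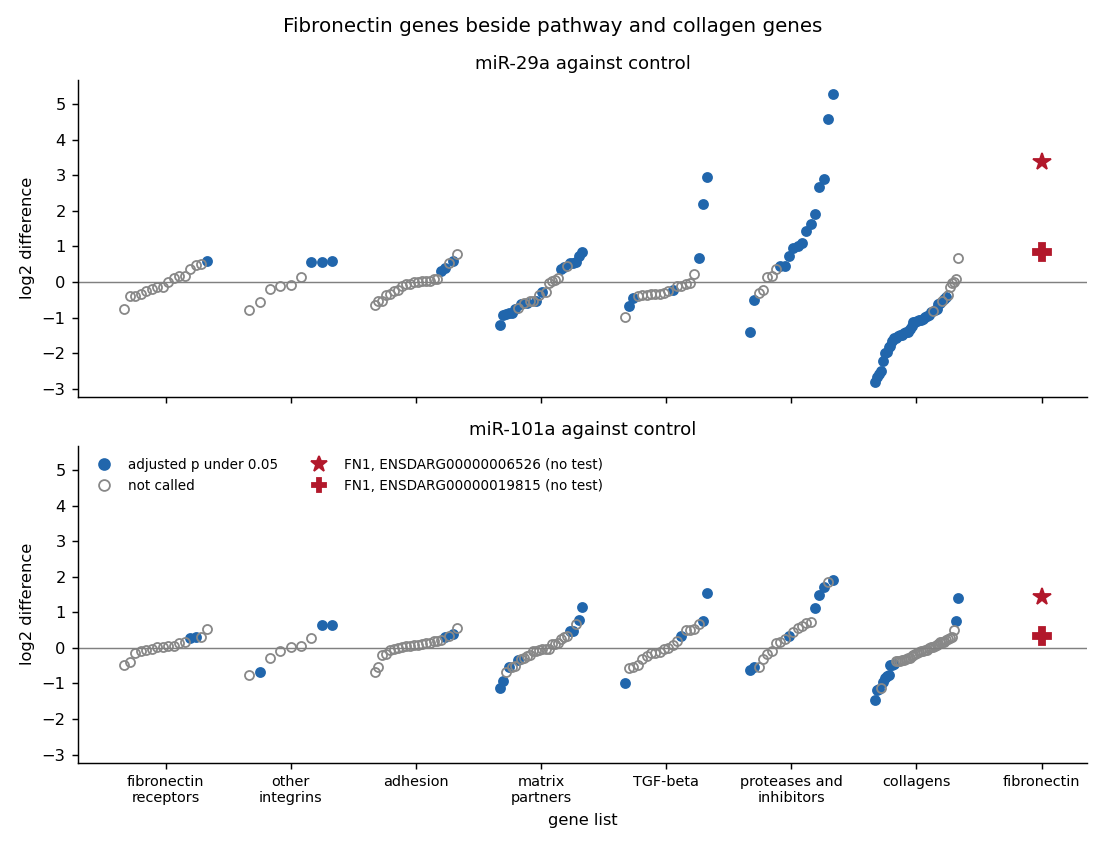
Log2 difference of each tested gene of 7 lists against control, for miR-29a (top) and miR-101a (bottom), sorted within each list. Filled dots have an adjusted p under 0.05 by edgeR's quasi-likelihood test, and the red symbols are the fibronectin genes, which were not tested. Collagens, whose low values led to the choice of fibronectin, lie mostly below 0 in miR-29a (36 of 44 were called lower) and proteases with their inhibitors mostly above it (13 of 20 rose). Over all tested genes 11.9% were called lower and 17.1% higher in that comparison.

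Fibronectin is made by fibroblast-like mesenchyme, epicardium, endothelium, macrophages and liver, and its rise is a classical mark of epithelial-mesenchymal transition in mammalian cells. Of 13 genes of that transition 2 rose and 2 fell in miR-29a, where 17.1% of all genes rose and 11.9% fell. In miR-101a 2 rose and 0 fell, where 11.7% of all genes rose and 6.97% fell. The epithelial cadherin cdh1, which falls in that transition, rose by 1.13 ± 0.07 in miR-29a (adjusted p = 1.3e-06) and by 0.75 ± 0.07 in miR-101a (adjusted p = 4.0e-05, edgeR's quasi-likelihood test). The counts of rises of this list, with or without miR-29a replicate 3, include cdh1, which is also among the epidermis markers below. The part of this transition in the fibronectin values was not tested.

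Regulators that promote the transition in mammalian cells were among the calls in both directions. The transcription factor snai2 rose by 0.35 ± 0.10 in miR-29a (adjusted p = 0.017; −0.000943 with limma on the deposited RPKM), and snai1a rose by 0.33 in miR-101a (adjusted p = 0.045). The transcription factor zeb2a and the mesenchymal filament gene VIM had log2 differences of −0.67 (adjusted p = 0.037) and −0.81 (adjusted p = 0.032) in miR-29a, all by edgeR's quasi-likelihood test. This VIM gene had a low level, with means of 1.62 CPM in control and 0.937 CPM in miR-29a. The call of snai1a was lost without any 1 of 10 libraries, that of zeb2a without any 1 of 9 and that of VIM without any 1 of 5.

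Of 9 markers of epidermis 5 rose and 1 fell in miR-29a (all genes 17.1% higher, 11.9% lower). In miR-101a 2 rose and 0 fell (all genes 11.7% and 6.97%). Without miR-29a replicate 3, 5 rose and 2 fell in miR-29a (all genes 25.8% higher, 26.8% lower). The cell adhesion gene epcam rose by 1.08 ± 0.17 in miR-29a (0.82 to 1.17 when 1 library was left out). The basal cell regulator TP63 rose by 0.40 in miR-29a and 0.32 in miR-101a. The keratin krt1-19d had a log2 difference of −1.16 in miR-29a (adjusted p = 0.040, edgeR's quasi-likelihood test), a call that held only with all libraries or without miR-29a replicate 3. The summed level of the 9 markers ran from 15774 to 16897 CPM in control, from 15628 to 18420 CPM in miR-101a and from 11914 to 20066 CPM in miR-29a, with medians of 16596, 17233 and 12422 CPM.

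Of 9 tested mesenchyme markers 1 rose and 2 fell in miR-29a (all genes 17.1% and 11.9%), and 1 rose and 1 fell in miR-101a (all genes 11.7% and 6.97%). Their summed level was 487 to 518 CPM in control, 491 to 528 CPM in miR-101a and 383 to 563 CPM in miR-29a. The proteoglycans lumican (LUM) and decorin (DCN) fell by 0.66 ± 0.16 and 0.65 ± 0.17 in miR-29a. The limb and head mesenchyme factor PRRX1 (ENSDARG00000033971) rose there by 0.40 (adjusted p = 0.040), a call lost without any 1 of 9 libraries, among them all control libraries. The receptor PDGFRA rose by 0.35 ± 0.08 in miR-101a (adjusted p = 0.012, edgeR's quasi-likelihood test). The 5 epicardial markers summed to 69.5 to 74.7 CPM in control, 94.5 to 98.2 CPM in miR-101a and 114 to 123 CPM in miR-29a, the order of gene A. Most of that sum was ALDH1A2, a retinoic acid synthesis enzyme that other tissues of the embryo also express, which rose by 0.48 ± 0.06 and 0.97 ± 0.06, whereas the epicardial factor TBX18 fell by 0.91 ± 0.18 in miR-29a. In miR-29a 1 of these 5 markers rose and 1 fell, and in miR-101a 1 rose and 0 fell.

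For the marker counts that follow, the shares of all genes were again 17.1% higher and 11.9% lower in miR-29a, and 11.7% higher and 6.97% lower in miR-101a. Of 9 endothelial markers 0 rose and 5 fell in miR-29a, and 0 rose and 3 fell in miR-101a, with sums of 204 to 222 CPM in control, 171 to 182 CPM in miR-101a and 151 to 164 CPM in miR-29a. Of 12 tested macrophage markers 3 rose and 1 fell in miR-29a, and 3 rose and 0 fell in miR-101a, and their sums were low, 26.2 to 33.8 CPM in control, 27.2 to 28.4 CPM in miR-101a and 33.9 to 48.5 CPM in miR-29a. Of 2 neutrophil markers 1 rose and 1 fell in miR-29a, with sums of 89.1 to 95.7 CPM in control, 116 to 134 CPM in miR-101a and 115 to 302 CPM in miR-29a. The part of these cell types in the fibronectin values was not tested.

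Other tissues moved too. Muscle markers summed to 30032 to 34172 CPM in control and 13682 to 38016 CPM in miR-29a, and lens markers to 955 to 1348 CPM in control and 47.7 to 443 CPM in miR-29a. The medians in control and miR-29a were 31069 and 16482 CPM for muscle and 1069 and 217 CPM for lens. In miR-29a 3 of 11 muscle markers, 8 of 8 lens markers and 2 of 8 tested erythroid markers fell, while 2 of 9 neuronal markers and 1 erythroid marker rose. Of 2 tested thrombocyte markers 1 fell. In miR-101a 2 muscle, 3 lens and 7 erythroid markers fell, both tested thrombocyte markers fell, and 2 neuronal, 1 muscle and 1 erythroid marker rose. Several marker counts rested on 1 library. With miR-29a replicate 3 left out, 10 muscle markers fell and 0 rose in miR-29a, 6 erythroid markers fell and 2 rose, 5 macrophage markers fell and 3 rose, and 4 mesenchyme markers fell and 1 rose. Of the genes of epithelial-mesenchymal transition 5 then fell and 2 rose, and over all genes 26.8% fell and 25.8% rose. In miR-101a 5 endothelial markers then fell and 0 rose, 6 muscle markers fell and 1 rose, 4 macrophage markers fell and 4 rose, 5 lens markers fell and 0 rose, and 7 neuronal markers rose and 1 fell. There 5 epidermal markers rose and 1 fell, 3 mesenchyme markers rose and 2 fell, and 5 genes of that transition rose and 2 fell, beside 23.7% of all genes that rose and 24.2% that fell.

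The genes whose log2 CPM most resembled that of gene A over the 12 libraries were sought among 18096 genes. Since the groups form steps, such a correlation in part compares 3 group levels, and it is given as a description. The nearest was complement component c4b, with Pearson r = 0.994, followed by c3a.6, another complement gene, with r = 0.985. The splicing regulator ESRP1, nlrp3l2 and plekhg6 each had r = 0.984. They were followed by parp14rs1 with 0.983, PLCE1 and the matrix protein thrombospondin 3 (THBS3) with 0.981 each, and the desmosomal cadherin dsc2l and si:ch73-252i11.1 with 0.980 each.

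The size of the change differed among these genes. The mean level of c4b was 27.8 CPM in control, 50.2 CPM in miR-101a and 105 CPM in miR-29a, and that of ESRP1 was 37.4, 46.4 and 57.6 CPM. None of the 10 reached the log2 difference of gene A in miR-29a, 3.37, and the nearest was si:ch73-252i11.1 with 2.31. For gene B the nearest genes were the membrane protease adam8b with r = 0.994, asap2b with 0.992, ELOVL5, a fatty acid elongase, and MYH9, a non-muscle myosin, with 0.986 each, and tep1 with 0.985. After subtraction of the group means, r was 0.956 to 0.981 for these 5 genes and 0.828 to 0.966 for the 10 nearest gene A. Like gene B, adam8b and asap2b were lowest of their group in miR-29a replicate 3. The part of that library in these correlations was not tested.

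Genes A and B correlated with each other at r = 0.949 over the 12 libraries, and gene B ranked 92 in likeness to gene A. After subtraction of the group means r was 0.941, a value to which miR-29a replicate 3 contributes as the library lowest for both.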

How the data were processed

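Libraries of whole zebrafish RNA were made with Illumina's TruSeq RNA v2 kit, per the labels' protocols. The strand is not marked by this kit, and genes that overlap on opposite strands cannot be told apart. The authors deposited gene counts, whole numbers of reads per gene that were not normalized, and a table of RPKM. Tools named in the submitters' processing notes are STAR 2.4.1d, bcl2fastq 1.8.4 and featureCounts 1.4.6-p4, with GRCz10 as the build and no settings. How reads shared by gene copies were counted is not given in the sources used here. Most deposited RPKM values had been divided by the total of another library: with the totals recycled down the genes, the implied gene length varied by under 1% in all 7554 genes that had 300 or more counts everywhere. With a library's own total this held for 0 genes. They served only as an alternative and for the gene lengths, and RPKM in the text was recomputed from the counts after TMM scaling.

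The counts were fitted with edgeR 4.0.16 under R 4.3.3 (filterByExpr, minimum count 10, 20872 of 32105 genes kept, TMM scaling, robust quasi-likelihood fit of all 12 libraries). Adjusted p-values of this test are Benjamini-Hochberg values over all tested genes, and genes were called to have risen or fallen when these were under 0.05. Likeness was Pearson's r of log2 CPM (prior count 2) among genes with a symbol and a mean of at least 1 CPM in some group. Intervals of shares are exact 95% Clopper-Pearson intervals and cover counting error only. The fitting steps were tested on simulated data.

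Gene symbols came from a table that names 26269 of the 32105 identifiers, and 182 of 193 entries in 19 lists of pathway genes and cell markers matched, while 11 did not. Fibronectin and these lists were chosen with earlier results of these data known. Named genes were the fibronectin genes, the 10 most like gene A and the 5 most like gene B, in each list and comparison with control the 3 or fewer called genes of smallest p in each direction (or the member of smallest p where none was called), and the chains of type I and type II collagen. ITGA5 in miR-29a, ILK, tgfb1a and the level of gene copies beside a named one were added after their values were seen. The miR-29a differences of CCN2 and of TGM2 (ENSDARG00000070157) are likewise outside this naming rule. Results for 1 named gene are not reported here. Alternatives were DESeq2 1.42.0, RLE scaling, other filters (none, or 1 CPM in 4 libraries), only the 8 libraries compared, the replicate number as a block, scaling on genes of similar length, limma 3.58.1 on log2(deposited RPKM + 0.5), and leaving out each library.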

Additional observations from a re-analysis of the deposited data

Results flagged for a closer look

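For each named gene reported here, and for the share of gene A, the 4 libraries of each group were examined. Of these 228 groups of 4 libraries, 15 had 1 library apart from the other 3. The gap, relative to the range of the 4 libraries, was one that chance alone would give in about 1 in 20 groups. As 15 of 228 is not far above that rate, many of the 15 may be chance, and a gap can be small in CPM. Neither fibronectin gene was among them, although miR-29a replicate 3 was the lowest of its group for both. The pooled rate takes no account of where the 15 fell, and 7 of them were in miR-29a replicate 3. There VTN stood at 79.9 CPM (33.3 to 40.1 CPM in the other 3 libraries) and epcam at 715 CPM (389 to 434). In the same library SMAD3 (ENSDARG00000010207) stood low at 14.2 CPM (28.7 to 29.7), zeb2a at 46.5 CPM (106 to 114), col17a1b at 21.5 CPM (26.2 to 27.1), adam8b at 4.50 CPM (12.2 to 13.2) and asap2b at 39.98 CPM (63.8 to 67.6).

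The other 8 were spread over 5 libraries. In miR-101a replicate 4 ITGB6 stood at 13.0 CPM (13.4 to 13.5 in the other 3 libraries), CCN2 at 110.5 CPM (124 to 127) and itga3a at 11.4 CPM (9.96 to 10.1). In control replicate 3 emilin1a stood at 40.2 CPM (42.5 to 42.9) and snai2 at 33.42 CPM (33.21 to 33.24), and c3a.6 stood at 25.6 CPM in control replicate 1 (20.3 to 20.7). In miR-29a replicate 2 IGFBP5 stood at 76.5 CPM (70.3 to 70.7), and in miR-29a replicate 4 COL8A1 at 0.201 CPM (0.467 to 0.517).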

How the results depend on the processing

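The differences of both fibronectin genes and the share of gene A kept their direction under every alternative run, and the differences moved by less than 1 SD between replicates in all 120 cases. That SD was the larger of the groups compared, on the log2 scale. In miR-29a it was 0.76 for gene A and 0.41 for gene B, beside 0.20 and 0.081 without replicate 3. This yardstick is therefore wide where miR-29a is compared. Leaving out 1 library at a time gave 3.18 to 3.62 (miR-29a against control), 1.37 to 1.49 (miR-101a against control) and 1.75 to 2.22 (miR-29a against miR-101a) for gene A, and 0.75 to 0.99, 0.28 to 0.37 and 0.42 to 0.68 for gene B on the log2 scale. The gene A share ran from 47.7% to 49.5% in control, from 66.3% to 67.2% in miR-101a and from 82.4% to 85.2% in miR-29a. From the deposited RPKM the miR-101a share was 68.7%, beside 66.8% ± 1.20 (SD, n = 4) from the counts. It was the only share that moved by more than 1 SD. Scaling on genes of similar length gave 3.50, 1.47 and 2.03 for gene A and 1.01, 0.37 and 0.64 for gene B.

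Counts of calls depended more on the processing, in the order miR-29a against control, miR-101a against control, and the direct comparison. Leaving out 1 library gave 4703 to 11095, 2711 to 10088 and 2565 to 9143 called genes, and 37 to 72, 19 to 59 and 30 to 66 of the 106 pathway genes. The highest value was each time the one without miR-29a replicate 3. With only the 8 libraries compared, 10055 genes and 59 pathway genes were called in miR-101a against control and 1891 genes in the direct comparison. In the first of these fits 53.1% of calls were higher, beside 62.8% with all libraries. With limma on the deposited RPKM, 2847, 1335 and 1400 genes and 22, 7 and 17 pathway genes were called. The median of all genes was then −0.10 for miR-29a against control, beside 0.03 with counts. Of the calls there 45.1% were higher (59.0% with counts), and in the direct comparison 33.5% were (48.3%). The cause was not tested.

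Replicate numbers recur in the groups, and 7 of 12 same-numbered pairs deviated together with a correlation over 0.1 (range −0.21 to 0.41). These correlations cannot settle whether same-numbered samples share a clutch or batch, so results with a replicate block are given as well. With a replicate block the log2 differences were 3.30, 1.44 and 1.86 for gene A and 0.81, 0.32 and 0.48 for gene B, and 5851, 3668 and 3495 genes and 40, 21 and 39 pathway genes were called.

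Of 100 calls of named genes 84 held without any 1 library. Of 2128 values of named genes under alternatives, 191 lost their call, 23 gained one and 2 turned: snai2 in miR-29a (log2 difference −0.000943 with limma on the deposited RPKM) and COL2A1 (ENSDARG00000069093) in miR-101a (−0.16 to 0.086 when 1 library was left out, above 0 without control replicate 3, and called in neither case).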
